A study of Mus musculus with 12 samples.

Results

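Muscle breaks glucose down through glycolysis and keeps a store of it as glycogen, and the 35 genes described here encode enzymes and regulators of both pathways. They were taken as a list of symbols, each matched to its Ensembl identifier in the count table, and all 35 of the 35 listed had at least 10 counts in at least 3 libraries, out of 43432 identifiers in the table. Of the 35, 34 passed the filter on low counts used for testing, among 14486 genes tested. Pygl, the liver form of glycogen phosphorylase, was not tested.

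RNA was sequenced from gastrocnemius, a large muscle of the calf, taken from male mice. The exercised cFeimin MKO and exercised WT groups had completed a run of 90 min at 60% of maximal speed, which the sedentary cFeimin MKO and sedentary WT groups had not. Mice called WT were floxed (fl/fl) with the gene intact, and MKO mice were their littermates lacking cellular Feimin. There were 3 libraries in each of the 4 groups, 12 in all, while the labels speak of 18. The exercised groups were replicates 1, 2 and 4 of MKO and 3, 4 and 5 of WT, and the sedentary groups were replicates 1, 2 and 3 of MKO and 1, 3 and 4 of WT. Neither the Cre driver, nor the age of the mice, nor the interval between run and sampling is stated in the labels. The labels give no batch, and nothing in them says which samples came from the same litter, so a p-value here reflects only how far these 12 libraries varied.

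In working muscle, glycogen phosphorylase releases glucose 1-phosphate from glycogen, and glycolysis carries it through phosphofructokinase to pyruvate and lactate. Phosphorylase kinase switches phosphorylase on, while phosphatase 1, brought to the glycogen particle by targeting subunits, switches it off and activates glycogen synthase. The bifunctional Pfkfb enzymes set the level of fructose 2,6-bisphosphate, an activator of phosphofructokinase.

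Library totals lay between 14324010 and 14563501 counts, and the 35 members held 4.16% to 5.84% of them. Levels are given as CPM, counts scaled to library size with TMM factors, and 3 counts were worth between 0.181 and 0.222 CPM. The labels name the targeted gene only as cFeimin; the row of B230219D22Rik, taken here as that gene from general knowledge, had 49 to 92 counts in MKO libraries and 293 to 405 in WT libraries. All 6 defining markers of skeletal muscle fibres were detected in every library. Sedentary MKO replicate 3 stood apart: the summed level of 8 slow and oxidative fibre genes was 1076 CPM there and 2415 to 3807 CPM in the other 11 libraries. Exercised WT replicate 5 and exercised MKO replicate 4 were grouped with it because they stood apart in earlier results of these data. The members held their lowest share of counts in that WT library. The choice of exercised MKO replicate 4 rests on those earlier results. Its counts differed from those of its group mates by a mean chi-square of at least 14.2, against 6.09 between the mates. Among sedentary WT libraries this measure was 13.5 to 26.2, so it does not single out exercised MKO replicate 4. Where leaving out these 3 libraries changed the call of a member, both values are given. Both are also given for some, but not all, named values that moved over 1.5 times.

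Promoter sequences are shown for the 3 members with the smallest p for exercise: Ppp1r3c, which targets phosphatase 1 to glycogen, Fbp2, the muscle fructose bisphosphatase, and Pfkfb3, a maker of fructose 2,6-bisphosphate with a pair of listed start sites. They are the 250 bases before the start site, 5′ to 3′ on the gene's strand, from RefSeq (GRCm38.p6). Capitals mark matches on either strand to 4 motifs: the core of the hypoxia response element (ACGTG), the related letters GCGTG, the cAMP response element (TGACGTCA) and the AP-1 site (TGAGTCA, which reads TGACTCA on the other strand).
Ppp1r3c, chr19:36736605-36736854, minus strand: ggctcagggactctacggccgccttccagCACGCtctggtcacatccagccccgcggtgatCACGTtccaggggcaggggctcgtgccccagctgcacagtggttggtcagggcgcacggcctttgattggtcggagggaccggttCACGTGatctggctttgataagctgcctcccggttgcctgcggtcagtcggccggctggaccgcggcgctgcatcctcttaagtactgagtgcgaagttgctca
Fbp2, chr13:62858401-62858650, minus strand: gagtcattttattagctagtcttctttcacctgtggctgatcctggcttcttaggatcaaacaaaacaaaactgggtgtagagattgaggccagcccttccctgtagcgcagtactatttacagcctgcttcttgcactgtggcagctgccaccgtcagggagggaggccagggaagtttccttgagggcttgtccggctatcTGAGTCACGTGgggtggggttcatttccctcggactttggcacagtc
Pfkfb3 start 1, chr2:11502091-11502340, minus strand: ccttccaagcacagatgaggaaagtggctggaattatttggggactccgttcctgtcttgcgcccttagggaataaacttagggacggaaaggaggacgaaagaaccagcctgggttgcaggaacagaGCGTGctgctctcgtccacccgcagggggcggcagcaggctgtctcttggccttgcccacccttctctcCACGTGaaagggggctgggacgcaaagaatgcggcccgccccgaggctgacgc
Pfkfb3 start 2, chr2:11553930-11554179, minus strand: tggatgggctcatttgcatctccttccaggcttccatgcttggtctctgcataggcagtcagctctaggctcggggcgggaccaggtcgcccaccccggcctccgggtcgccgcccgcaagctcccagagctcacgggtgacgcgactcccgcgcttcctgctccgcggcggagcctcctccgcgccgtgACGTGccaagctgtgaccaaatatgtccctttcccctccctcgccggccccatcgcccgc
The E-box CACGTG, which holds ACGTG on both strands, began at base -104 of Ppp1r3c, -42 of Fbp2 and -53 of the first Pfkfb3 start, and in Fbp2 it overlapped TGAGTCA at -47. Among 32851 mouse promoter windows of the same length, 16.6% held the hypoxia core, 28.2% held GCGTG, 6.02% held the E-box, 1.55% the cAMP element and 4.46% the AP-1 site. Of the 49 windows found for the members, 19 held the hypoxia core, 25 held GCGTG, 7 held the E-box, 1 the cAMP element and 2 the AP-1 site. A match describes the letters and does not show that a factor binds there.

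Levels are first compared between members per length, as CPM per kilobase of merged exon averaged over the 12 libraries. Aldoa, the muscle aldolase, was the highest at 6627, and Eno3, the muscle enolase, Pygm, the muscle glycogen phosphorylase, and Pgam2, the muscle phosphoglycerate mutase, followed at 2488, 2378 and 2243. The ranges over libraries of Eno3, Pygm and Pgam2 overlapped each other, so their order is not fixed beyond the spread. Pfkm, the muscle phosphofructokinase, stood at 845, Ldha at 642, Tpi1 at 543 and Pkm at 542. The low end was held by Pfkp at 0.278, Ppp1r3b at 0.0796 and Pygl at 0.0724. Pygl had 0 counts in sedentary MKO replicate 3 and sedentary WT replicate 4 and at most 12 counts in any library.

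**Figure D1:**
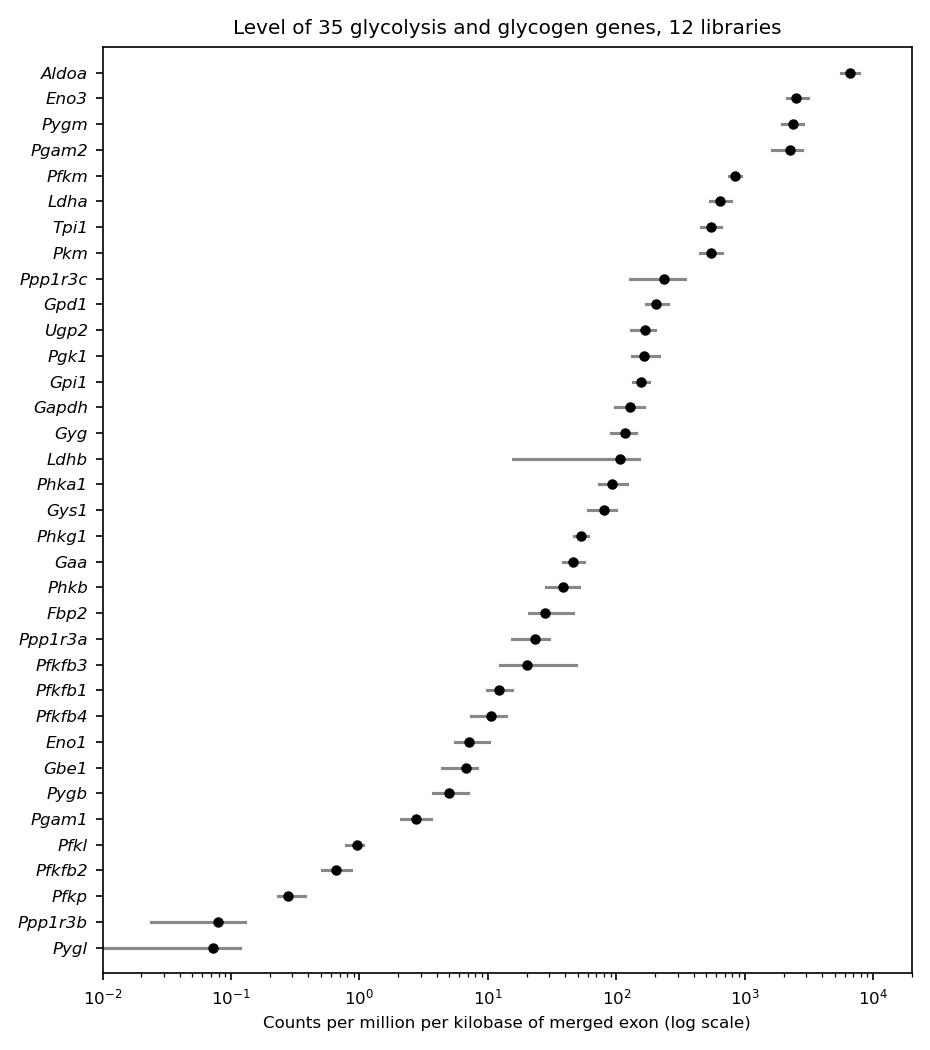
Level of each of the 35 members per length (CPM per kilobase of merged exon, log axis); points are means over 12 libraries and bars run from the lowest to the highest library, with the bar of Pygl cut at the left edge because 2 libraries held 0 counts. Aldoa at 6627 and Pygl at 0.0724 mark the ends, and Ldhb has a long bar because of 1 sedentary MKO library.

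Among the phosphofructokinase, phosphorylase, mutase and enolase members, the muscle form held nearly all of the summed level per length in every library. Pfkm held 99.83% to 99.87% of the 3 phosphofructokinase genes, Pygm 99.72% to 99.83% of the 3 phosphorylases, Pgam2 99.84% to 99.91% of the 2 mutases and Eno3 99.67% to 99.75% of the 2 enolases. Neither exercise nor genotype moved these shares by as much as 1 percentage point. The enolase pair leaves out Eno2, which is no member. The Eno1 and Pgam1 rows held only 56.4% and 71.5% of the counts of their families of similar rows, so their shares may be too low. Shares varied more in the Pfkfb family and between the lactate dehydrogenases, as described with their libraries.

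Reads of several members can match other rows of the table. The Gapdh row held 4.91% of the counts of its family of near-identical rows: 92203 counts, against 1784878 in 159 rows with at least 90% identity over 300 bases. Pgk1 held 51.3%, Eno1 56.4% and Pgam1 71.5% of their families' counts, and these 4 members are therefore uncertain. Summing the families changed no call among the members. Exons of Pfkp overlap 748 bases of Pitrm1 on the other strand, and since the treatment of strand is not given, their reads cannot be told apart; the same holds for 310 bases of Gys1 with Ruvbl2 and 630 bases of Phkg1 with Sumf2.

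Exercise was compared with rest first over both genotypes together, as the mean of the 2 exercise contrasts. Among the glycogen genes, Ppp1r3c rose by a factor of 1.46 after the run. Among the sugar phosphate genes, Fbp2 fell to 0.679 times its sedentary level. These were the only 2 of the 34 tested members that passed edgeR's quasi-likelihood test at a Benjamini-Hochberg adjusted p under 0.05, 1 higher and 1 lower, whereas 13.6% of all 14486 genes passed, 6.16% as higher and 7.4% as lower. DESeq2 called 3 members and limma-voom 1. At an unadjusted p under 0.05 there were 4 members, and 25.7% of all genes. The median log2 fold change of the members was 0.06, against -0.00 for all genes. Without the 3 libraries that stood apart, neither Ppp1r3c (log2 fold change 0.59, adjusted p = 0.104) nor Fbp2 (-0.38, adjusted p = 0.212) passed. The 2 members that then passed, both higher, were Eno3 (0.29, adjusted p = 0.0374) and Ldha (0.26, adjusted p = 0.0227). With all libraries Eno3 was at 0.23 (adjusted p = 0.154) and Ldha at 0.14 (adjusted p = 0.483).

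Ppp1r3c (ENSMUSG00000067279, chr19:36731731-36736653) had 775, 654 and 635 CPM in the exercised MKO libraries and 708, 933 and 855 CPM in the exercised WT libraries. It had 381, 570.2 and 521 CPM in the sedentary MKO libraries and 681, 349 and 609.9 CPM in the sedentary WT libraries. Exercised and sedentary libraries did not overlap within either genotype, although exercised MKO replicates 2 and 4 lay below the highest sedentary WT library. Its log2 fold change with exercise was 0.55 ± 0.16 (SE; 95% interval 0.20 to 0.90; adjusted p = 0.043). The response was 0.49 ± 0.23 in MKO (adjusted p = 0.343) and 0.61 ± 0.23 in WT (adjusted p = 0.139), and the difference between them, -0.12 ± 0.32, had an adjusted p of 0.985. Without sedentary WT replicate 3 the WT value was 0.37 (adjusted p = 0.344). Ppp1r3c held 81.2% to 94.2% of the summed level per length of the 3 targeting subunit genes among the members. This share leaves out Ppp1r3d, Ppp1r3e, Ppp1r3f and Ppp1r3g, which are no members. The call rested on small margins: it was kept without sedentary WT replicate 1 (adjusted p = 0.0264), sedentary WT replicate 3 (0.0484), sedentary MKO replicate 2 (0.0465) or exercised WT replicate 3 (0.0483), and was lost without any of the other 8 libraries (0.0552 to 0.0984), always with a positive log2 fold change.

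Fbp2 (ENSMUSG00000021456, chr13:62836877-62858422) makes the enzyme that turns fructose 1,6-bisphosphate back into fructose 6-phosphate. It had 33.8, 38.6 and 31.6 CPM in exercised MKO libraries and 30.7, 34.5 and 30.8 CPM in exercised WT libraries. In sedentary MKO libraries it had 45.2, 34.8 and 64.3 CPM, and in sedentary WT libraries 34.9, 67.6 and 47.4 CPM. The 6 exercised libraries lay close together, while sedentary MKO replicate 3 and sedentary WT replicate 3 were the highest, and the groups overlapped in MKO but not in WT. The log2 fold change was -0.56 ± 0.17 (95% interval -0.93 to -0.19; adjusted p = 0.0491), with -0.47 ± 0.24 in MKO (adjusted p = 0.393) and -0.64 ± 0.24 in WT (adjusted p = 0.137). The call was kept without sedentary WT replicate 1 (adjusted p = 0.0171) or sedentary MKO replicate 2 (0.0232) and was lost without any of the other 10 libraries (0.069 to 0.114). The MKO value was -0.20 without sedentary MKO replicate 3 and the WT value -0.36 without sedentary WT replicate 3. Without the 3 libraries that stood apart the averaged value was -0.38 (adjusted p = 0.212).

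Pfkfb3 (ENSMUSG00000026773, chr2:11471433-11554077), which favours the making of fructose 2,6-bisphosphate, missed the threshold narrowly. It had 102, 120.2 and 94.6 CPM in exercised MKO libraries and 106, 117 and 112 CPM in exercised WT libraries. Sedentary MKO libraries had 181, 95.2 and 251 CPM and sedentary WT libraries 147, 365 and 147 CPM. Exercised WT libraries were all below sedentary WT libraries, and in MKO the groups overlapped because sedentary replicate 2 was as low as the exercised ones. Sedentary WT replicate 3 and sedentary MKO replicate 3, the highest here, were also the highest for Fbp2. The log2 fold change was -0.85 ± 0.26 (95% interval -1.43 to -0.28; adjusted p = 0.0506), it was -0.57 without sedentary WT replicate 3 (adjusted p = 0.105), and DESeq2 gave an adjusted p of 0.047. The gene passed edgeR's test without sedentary WT replicate 1 (adjusted p = 0.0355), sedentary WT replicate 4 (0.0364) or sedentary MKO replicate 2 (0.0169). It was -0.74 ± 0.37 in MKO alone (adjusted p = 0.39) and -0.97 ± 0.37 in WT alone (adjusted p = 0.144), the MKO value being -0.37 (adjusted p = 0.737) without sedentary MKO replicate 3 and the WT value -0.39 (adjusted p = 0.576) without sedentary WT replicate 3.

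**Figure D2:**
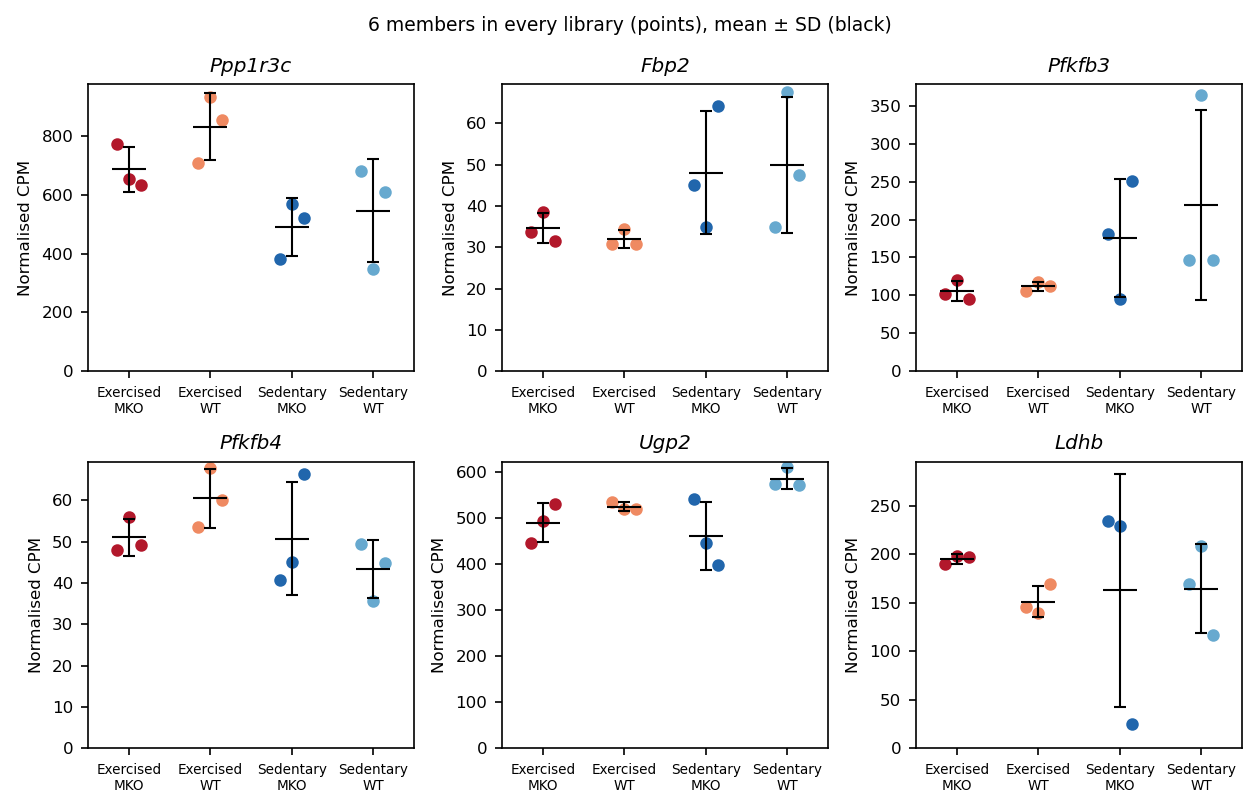
Normalised CPM of 6 members in every library, one point per library, with the mean and SD of each group of 3 in black. Fbp2 and Pfkfb3 are tightly grouped in exercised libraries and spread in sedentary ones, and 1 sedentary MKO library lies at 24.6 CPM for Ldhb.

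The spread of Pfkfb3 and Fbp2 between replicates was itself unequal. The SD of log2 CPM of Pfkfb3 was 0.18 in exercised MKO, 0.07 in exercised WT, 0.71 in sedentary MKO and 0.76 in sedentary WT. For Fbp2 it was 0.15 in exercised MKO, 0.09 in exercised WT, 0.44 in sedentary MKO and 0.47 in sedentary WT. The median over all genes tested lay between 0.15 and 0.18 in all groups. A wide spread was thus not general to sedentary libraries, but it was not limited to Pfkfb3 and Fbp2. Ppp1r3c had 0.16 in exercised MKO, 0.20 in exercised WT, 0.31 in sedentary MKO and 0.52 in sedentary WT. Pfkfb4 had 0.12, 0.17, 0.37 and 0.24 in the same order, while Gapdh was wider in exercised libraries (0.20, 0.25, 0.10 and 0.15). The difference in spread was seen in the data and was not tested.

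Pfkfb4, another Pfkfb gene (chr9:108991778-109032228), had 47.9, 56.0 and 49.1 CPM in exercised MKO libraries and 53.7, 67.7 and 60.0 CPM in exercised WT libraries. It had 40.8, 45.0 and 66.4 CPM in sedentary MKO libraries and 49.6, 35.7 and 44.7 CPM in sedentary WT libraries. Exercised WT lay above sedentary WT without overlap, and in MKO the sedentary replicate 3 exceeded every exercised library. The log2 fold change was 0.01 ± 0.18 in MKO (adjusted p = 0.996) and 0.48 ± 0.18 in WT (adjusted p = 0.136), and the difference of -0.47 ± 0.25 had an adjusted p of 0.983. Without sedentary MKO replicate 3 the MKO value was 0.26 (adjusted p = 0.502), the WT value 0.50 (adjusted p = 0.0444) and the mean of both 0.38 (adjusted p = 0.0317).

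The makeup of the Pfkfb family per length followed from these levels. Pfkfb3 held 37.2% to 39.2% of the 4 genes in exercised MKO and 36.7% to 38.3% in exercised WT, against 34.6% to 58.2% in sedentary MKO and 42.6% to 70.2% in sedentary WT. Pfkfb4 held 28.4% to 30.0% in exercised MKO and 29.4% to 32.9% in exercised WT, against 17.9% to 25.4% in sedentary MKO and 10.7% to 22.3% in sedentary WT. The share of Pfkfb4 was thus above every sedentary library in all 6 exercised libraries, while that of Pfkfb3 overlapped in MKO. Pfkfb1 and Pfkfb2 did not pass in any of the 7 comparisons, although under scaling by total counts alone Pfkfb1 passed as lower over both genotypes (-0.30; adjusted p = 0.0351).

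**Figure D3:**
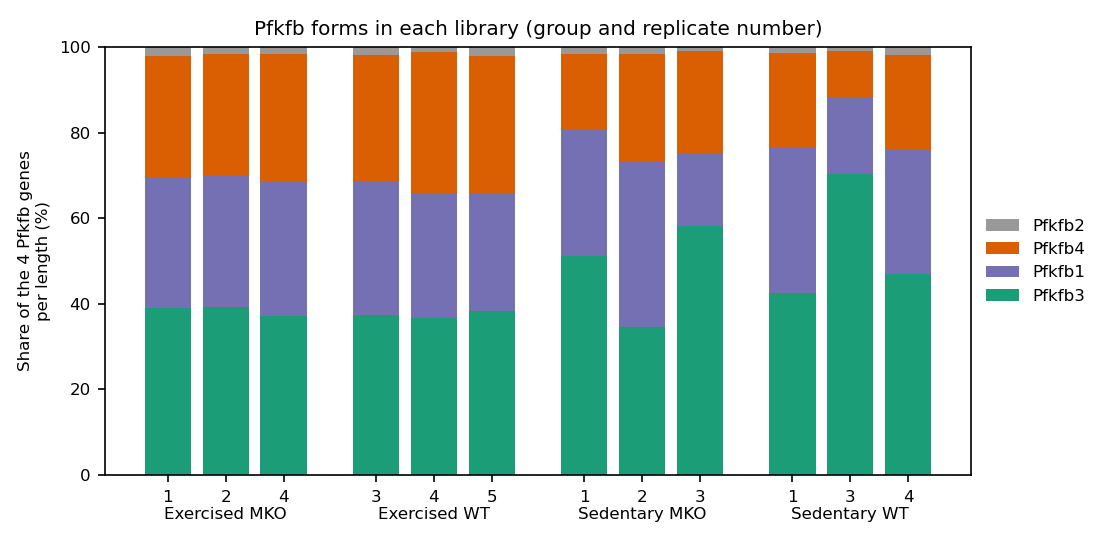
Share of each Pfkfb gene in the summed level per length of the 4 genes (percent), 1 bar per library, grouped by state and genotype. The exercised bars are nearly alike, with Pfkfb4 at 28.4% to 32.9%, and the sedentary bars differ, with Pfkfb3 between 34.6% and 70.2%.

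In each genotype alone, no member passed. In exercised against sedentary MKO the count was 0 of 34, where 4.05% of all genes passed (2.29% higher and 1.75% lower), and 1 member had an unadjusted p under 0.05; in exercised against sedentary WT it was 0 of 34, where 8.24% passed (4.14% higher and 4.1% lower), and 4 had such a p. DESeq2 and limma-voom also called 0 in both. Groups did not overlap for 1 member in MKO, higher (Ppp1r3c; 10.1% of all genes were higher without overlap), and for no member lower (11.6%). In WT, 4 members were higher (Pfkfb4, Ppp1r3c, Pfkp and Phka1; 12.5%) and 3 lower (Fbp2, Pfkfb3 and Ugp2; 14.8%). The difference between the 2 responses passed for 0 of 34 members by edgeR, DESeq2 and limma-voom, as it did for 0% of all genes by edgeR, and 0 members had an unadjusted p under 0.05.

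The abundant enzymes of glycolysis did not pass, and their intervals give the size of change that the data allow. Over both genotypes the 95% interval lay within a 1.5-fold change either way for 29 of 34 members, against 67.1% of all genes. The members were not matched to all genes in expression level, on which the width of an interval depends. Of 16 glycolytic enzymes (from Gpi1 to the lactate and glycerol phosphate dehydrogenases), 14 had a positive log2 fold change and the median was 0.09, but under scaling by total counts alone, which moved the median of all genes by -0.12, 7 of 16 were positive and the median was -0.03, against -0.125 for all genes. Of the 13 tested glycogen genes, 8 were positive and the median was 0.06, and 2 were positive under scaling by total counts alone.

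Aldoa had 18379.7, 21493 and 22146.5 CPM in exercised MKO, 20607, 22465 and 16279 in exercised WT, 17546, 17008 and 19984 in sedentary MKO, and 20112, 16890 and 18573 in sedentary WT. Exercised and sedentary libraries overlapped in both genotypes, and the log2 fold change was 0.14 ± 0.10 (95% interval -0.08 to 0.36). Exercised WT replicate 5 had the lowest level of all 12 libraries for Aldoa, as it did for Eno3, Pgam2, Tpi1, Gapdh, Pgk1 and Ldha.

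Eno3 had 4166, 5178 and 5368 CPM in exercised MKO, 4832, 4773 and 3705 in exercised WT, 3947, 3763 and 4457 in sedentary MKO, and 3786, 4116 and 3835 in sedentary WT. It had the largest log2 fold change among the glycolytic enzymes, 0.23 ± 0.10 (95% interval 0.02 to 0.44; adjusted p = 0.154), with overlap in both genotypes; it passed without exercised WT replicate 5 (0.29; adjusted p = 0.0496). Pkm, the last enzyme of glycolysis, had 2646, 3026.5 and 3299 CPM in exercised MKO, 2867, 3055 and 2345 in exercised WT, 2426, 2501 and 2973 in sedentary MKO, and 2645, 2245 and 2476 in sedentary WT. Its log2 fold change of 0.18 ± 0.09 had an adjusted p of 0.282 and its groups overlapped as well.

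Pfkm, which commits sugar to glycolysis, had 2601, 3072 and 2951 CPM in exercised MKO, 2987, 3044 and 2736 in exercised WT, 2740.5, 2807 and 2496 in sedentary MKO, and 3099.5, 2549 and 2792 in sedentary WT. Exercised and sedentary libraries of Pfkm overlapped in both genotypes, and its log2 fold change of 0.08 had a 95% interval of -0.09 to 0.25. Gapdh had 508, 594 and 675 CPM in exercised MKO, 493, 565 and 401 in exercised WT, 519, 595 and 559 in sedentary MKO, and 546, 459.9 and 455 in sedentary WT. Gapdh, often used as a reference gene, overlapped in the same way. Its log2 fold change was 0.04 (95% interval -0.18 to 0.27), and with its similar rows added it was 0.11 (adjusted p = 0.502).

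Ldha, which makes lactate from pyruvate, had 2069, 2384 and 2468 CPM in exercised MKO, 2297, 2355 and 1778 in exercised WT, 1854, 1869 and 2577 in sedentary MKO, and 1949.5, 1931 and 1969 in sedentary WT. Ldhb, the form of oxidative fibres and heart, had 189.7, 198 and 197 CPM in exercised MKO, 145, 139 and 169.5 in exercised WT, 235, 229 and 24.6 in sedentary MKO, and 169, 208 and 116 in sedentary WT. Exercised and sedentary libraries overlapped in both genotypes for both genes. Sedentary MKO replicate 3 was the highest of all libraries for Ldha and the lowest for Ldhb, and it is the library with 1076 CPM of slow and oxidative fibre genes. The share of Ldhb in the lactate dehydrogenase pair was 1.97% there and 11.1% to 21.1% in the other 11. For Ldhb in MKO the log2 fold change with exercise was 0.26 ± 0.55, and -0.24 without that library.

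Glycogen phosphorylase and synthase also gave no call. Pygm had 7596, 8561 and 6835 CPM in exercised MKO, 8019, 9129.9 and 8188 in exercised WT, 6649, 6873 and 7738 in sedentary MKO, and 8123, 6211 and 7916 in sedentary WT, and its log2 fold change of 0.15 had a 95% interval of -0.05 to 0.36. Gys1, the muscle glycogen synthase, had 346, 405 and 404 CPM in exercised MKO, 378, 382 and 367 in exercised WT, 397, 388 and 287 in sedentary MKO, and 475, 363 and 381 in sedentary WT, with an interval of -0.22 to 0.21 around a log2 fold change of -0.00. Both were the main forms of their steps, and their groups overlapped. Ppp1r3a, another targeting subunit, had 123, 151 and 108 CPM in exercised MKO, 173, 147 and 199 in exercised WT, 187, 138 and 208 in sedentary MKO, and 170.3, 206 and 124 in sedentary WT. Its groups overlapped too, and it had the smallest p of the members for exercise in MKO, with a log2 fold change of -0.48 ± 0.21 (adjusted p = 0.293), or -0.24 without the 3 libraries that stood apart, and 0.06 ± 0.21 in WT.

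The other 14 tested members, whose libraries are not listed one by one, had log2 fold changes with exercise over both genotypes from -0.33 (Ppp1r3b) to 0.14 (Gpi1, which turns glucose 6-phosphate into fructose 6-phosphate), with no adjusted p below 0.289. For MKO over WT averaged over states they ran from -0.25 (Gyg) to 0.73 (Ppp1r3b), with no adjusted p below 0.298. They include the low-level phosphofructokinases Pfkl and Pfkp, the branching enzyme Gbe1 and the glycerol phosphate dehydrogenase Gpd1.

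Of other genes of the same pathways, 46 were listed and 37 tested. Over both genotypes 3 rose and 2 fell, against 13.6% of all genes passing, a share near that of the list. Hk2, the hexokinase that traps glucose in muscle, had 412, 405 and 424 CPM in exercised MKO, 433, 469 and 603 in exercised WT, 245, 232 and 209 in sedentary MKO, and 249.9, 199 and 216 in sedentary WT. Every exercised library lay above every sedentary one, and the log2 fold change was 1.02 ± 0.09 (adjusted p = 2.68e-05), 0.85 ± 0.13 in MKO (adjusted p = 0.004) and 1.18 ± 0.13 in WT (adjusted p = 0.000253). Slc16a1, a lactate carrier, rose too, with a log2 fold change of 0.81 ± 0.16 (adjusted p = 0.00478), as did Pgm2, a phosphoglucomutase, with 0.51 ± 0.12 (adjusted p = 0.0115). Mlxip, a glucose-responsive transcription factor, fell, with a log2 fold change of -0.29 ± 0.08 (adjusted p = 0.031), and so did Prkaa1, a catalytic subunit of AMP-activated kinase, with -0.25 ± 0.06 (adjusted p = 0.0244). In the comparisons of MKO with WT and in the difference of responses, 0 of the 37 passed by edgeR's test. At an unadjusted p under 0.05 there were 13 in exercised muscle, 3 in sedentary muscle and 12 averaged over states, and 0 for the difference. The log2 fold changes of MKO over WT averaged over states ran from -0.34 to 5.63 (median -0.01), and the gene at the high end did not pass either.

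Markers of other cells moved with exercise. Over both genotypes, 5 of 5 fibroblast markers, 4 of 5 red blood cell markers, 3 of 7 macrophage markers and 3 of 4 endothelial markers passed as lower, and 0 of 6 muscle fibre, 0 of 7 fast fibre and 0 of 8 slow fibre markers passed. Most fibre markers were nonetheless positive. This held for 5 of 6 muscle fibre (median 0.14), 7 of 7 fast fibre (0.17) and 7 of 8 slow fibre markers (0.32), against a median of -0.00 for all genes. The summed fibroblast level was 245 to 406 CPM in exercised MKO and 238 to 268 in exercised WT, against 565 to 609.7 in sedentary MKO and 428 to 533 in sedentary WT. The part of these cells in the member values was not tested, and in whole muscle fewer cells of a type and less RNA per cell cannot be told apart.

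MKO was compared with WT in each state. No member passed in either. In exercised muscle 0 of 34 passed (0.0345% of all genes did, 0.0276% lower) and 6 members had an unadjusted p under 0.05, which 16% of all genes had. In sedentary muscle 0 of 34 passed (0.0069% of all genes did) and 1 member had an unadjusted p under 0.05, against 3.76% of all genes. Averaged over the states the count was 0 (0.0138% of all genes) and 10 members had an unadjusted p under 0.05, against 15.5% of all genes. DESeq2 and limma-voom called 0 members in all 3.

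The glycolytic enzymes and the glycogen genes nonetheless divided in sign. Averaged over states, 14 of 16 glycolytic enzymes had a positive log2 fold change of MKO over WT (median 0.10), and 12 of 13 glycogen genes a negative one (median -0.18), whereas 50.8% of all genes were positive. The 7 enzymes from Gapdh to Pkm were all positive, between 0.10 and 0.30. The 3 phosphorylase kinase members, Phka1, Phkb and Phkg1, were all negative, between -0.29 and -0.11. Pathway genes that are no members, among them Phka2 and Phkg2, were left out of this division. The exception among the glycogen genes was Ppp1r3b, at 0.73 ± 0.33 with at most 13 counts in any library. The Pfkfb genes and Fbp2 were placed in neither group. All 4 Pfkfb genes, which regulate glycolysis, were negative (median -0.11), and Fbp2 was at 0.03. Both groups were pooled by role after the values were seen, and no test was made of them.

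The sides of this division differed in how they held. Without the 3 libraries that stood apart, 7 of 16 glycolytic enzymes were positive (median -0.03). Of the 14 glycogen genes then measured, which included Pygl, 12 were negative (median -0.16). In exercised muscle alone 14 of 16 glycolytic enzymes were positive, and 8 of 16 without exercised WT replicate 5. In sedentary muscle 13 of 16 were positive, and 8 of 16 without sedentary MKO replicate 3. The glycogen genes had 11 of 13 negative in exercised and 10 of 13 negative in sedentary muscle. Leaving out each library in turn, at least 8 of the 14 then measured were negative in sedentary muscle and at least 11 in exercised muscle.

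Transcript length moved with this division. The merged exon length had a median of 3135.5 bases for the glycolytic enzymes and 5080.5 for the glycogen genes. Across genes, the log2 fold change of MKO over WT averaged over states had a Spearman correlation with that length of -0.327 over the 34 members and of -0.269 over 14402 genes; in exercised muscle these were -0.421 and -0.306. Genes in the shortest length class of 3, under 2702 bases, had a median of 0.08 averaged over states and those in the longest, above 5420 bases, -0.06. Of 8 slow and oxidative fibre genes, 7 were positive (median 0.47), with none passing. Macrophage markers were positive in 7 of 7 (median 0.895) and fibroblast markers in 5 of 5 (median 0.56). Red blood cell markers were positive in 5 of 5 (median 0.67) and Schwann cell markers in 4 of 4 (median 0.48). None of these passed. At an unadjusted p under 0.05 there were 7 macrophage, 4 fibroblast and 4 red blood cell markers, against 15.5% of all genes. There were 0 Schwann cell and 0 slow and oxidative fibre markers with such a p. Most markers of fast fibres (5 of 7, median -0.04) and muscle fibres (4 of 6, median -0.01) were negative. So were most endothelial (3 of 4, median -0.07) and adipocyte markers (2 of 3 tested, median -0.34), also with none passing. The summed macrophage level was 39.3 to 80.7 CPM in exercised MKO and 27.3 to 34.8 in exercised WT, and 66.0 to 94.7 CPM in sedentary MKO and 49.1 to 56.6 in sedentary WT. The part of length, fibre type and other cells in the member values was not tested.

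**Figure D4:**
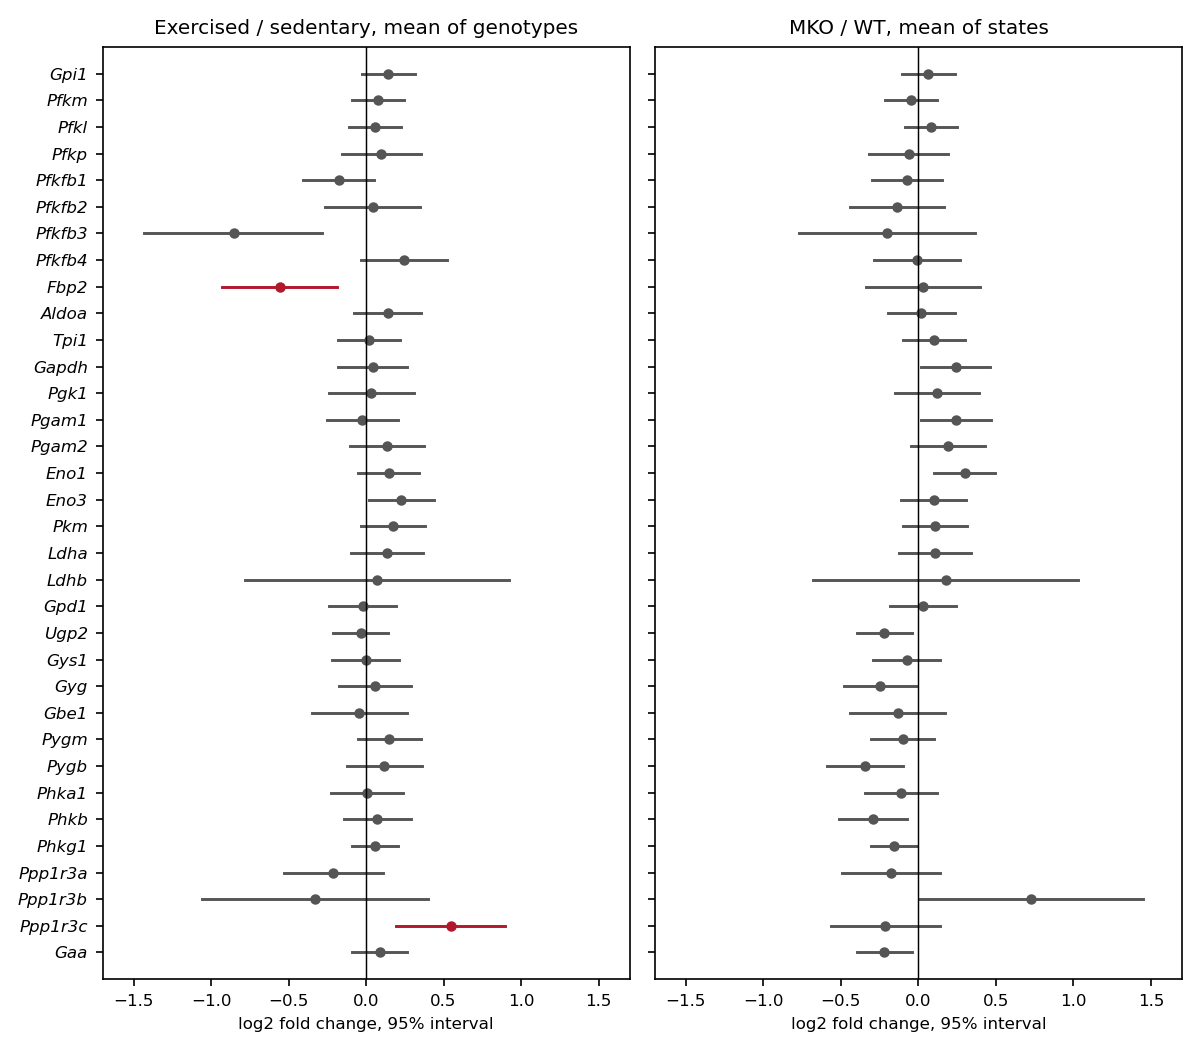
Log2 fold change of the 34 tested members with 95% intervals, exercised over sedentary as the mean of both genotypes (left) and MKO over WT as the mean of both states (right), with members that passed in red. Ppp1r3c at 0.55 and Fbp2 at -0.56 passed on the left, and on the right none passed while most glycolytic enzymes lie above 0 and most glycogen genes below.

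Among the glycolytic enzymes, Eno1, the widely expressed enolase, was the member with the smallest p for genotype. It had 40.1, 40.2 and 54.8 CPM in exercised MKO and 37.6, 36.6 and 33.0 in exercised WT, and 38.6, 37.7 and 42.8 in sedentary MKO and 33.6, 35.8 and 29.8 in sedentary WT. MKO lay above WT without overlap in both states. The log2 fold change averaged over states was 0.30 ± 0.09 (95% interval 0.10 to 0.50; adjusted p = 0.188), and 0.32 (adjusted p = 0.17) with its similar rows added. Without the 3 libraries that stood apart it was 0.16 averaged (adjusted p = 0.439) and 0.11 in exercised muscle, where exercised MKO replicate 4 was the highest library. Pgam1, the widely expressed mutase, had 6.71, 4.96 and 7.19 CPM in exercised MKO and 4.18, 4.43 and 5.24 in exercised WT, which overlapped, and 5.996, 5.35 and 5.32 in sedentary MKO and 5.77, 5.46 and 5.01 in sedentary WT. Its log2 fold change was 0.45 ± 0.15 in exercised muscle (adjusted p = 0.228) and 0.04 ± 0.15 in sedentary muscle, and the difference of 0.41 ± 0.21 had an adjusted p of 0.983. Both rows share reads with similar rows, as described above.

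Among the glycogen genes, Ugp2, which makes the UDP-glucose used for glycogen, had 445, 494 and 531 CPM in exercised MKO and 536, 519 and 519 in exercised WT, which overlapped. It had 542, 446 and 398 CPM in sedentary MKO and 573, 611 and 571 in sedentary WT, with every MKO library below every WT one. Its log2 fold change was -0.10 ± 0.12 in exercised muscle (adjusted p = 0.692) and -0.34 ± 0.12 in sedentary muscle (95% interval -0.59 to -0.09; adjusted p = 1). Pygb, the brain form of phosphorylase, had 23.4, 24.0 and 18.0 CPM in exercised MKO and 23.4, 28.2 and 33.8 in exercised WT, and 19.5, 23.1 and 19.4 in sedentary MKO and 25.3, 21.98 and 29.1 in sedentary WT. It overlapped in both states, and its log2 fold change averaged over states was -0.34 ± 0.11 (adjusted p = 0.21), or -0.19 (adjusted p = 0.573) without the 3 libraries that stood apart.

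Phkb, the regulatory beta subunit of phosphorylase kinase, had 259.9, 284 and 210.4 CPM in exercised MKO and 325, 299 and 377 in exercised WT. In sedentary muscle it had 231, 253 and 290.4 CPM in MKO and 273, 273 and 332 in WT. The exercised groups did not overlap and the sedentary ones did, and the log2 fold change was -0.41 ± 0.14 in exercised muscle (adjusted p = 0.229) and -0.18 ± 0.14 in sedentary muscle (adjusted p = 1). The exercised value was -0.20 (adjusted p = 0.81) without the 3 libraries that stood apart, and the sedentary value -0.08 without sedentary WT replicate 4. Gaa, the lysosomal enzyme that breaks glycogen down, had 216, 206 and 182 CPM in exercised MKO and 239, 269 and 255 in exercised WT, without overlap. It had 186, 207 and 224 CPM in sedentary MKO and 231, 191 and 241 in sedentary WT, and its log2 fold change was -0.34 ± 0.11 in exercised muscle (adjusted p = 0.229) and -0.11 ± 0.11 in sedentary muscle (adjusted p = 1).

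Members without overlap between genotypes are counted beside the share of all genes that did not overlap in the same direction. In exercised muscle 2 were higher in MKO (Eno1 and Ldhb; 11.1% of all genes) and 5 lower (Gaa, Phkb, Phkg1, Gyg and Phka1; 12%). In sedentary muscle 2 were higher (Eno1 and Pfkl; 5.43%) and 1 lower (Ugp2; 4.91%). Gyg encodes glycogenin, the primer of the glycogen particle. The 95% interval of the genotype effect averaged over states lay within a 1.5-fold change either way for 30 of 34 members, against 74.4% of all genes. Here too the members were not matched to all genes in expression level.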

How the data were processed

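Raw counts per Ensembl gene were used as deposited by the authors, for 12 libraries in 4 groups of 3, grouped by the labels' titles. Per the submitters' processing notes, the tools were HISAT2 2.2.1 and StringTie 2.1.4, with SAMtools 1.9, FastQC 0.12.1, DESeq2 1.40.2 and R 4.3, on GRCm38.p6 (mm10). Neither the counting step nor its handling of strand and of multiply matching reads is stated there. A column with a spelling error was read as exercised MKO replicate 4, since every other library had its own.

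Symbols, positions and merged exon lengths came from GENCODE M21 (GRCm38.p6), which matched 42548 identifiers, and promoters from RefSeq. Similar rows were found with BLAST 2.17.0 (90% identity over 300 bases). The tests used edgeR 4.0.16 (R 4.3.3): filterByExpr (minimum count 10, minimum total 15), TMM factors (0.928 to 1.15), and a single quasi-likelihood fit of the 4 group means (8 residual degrees of freedom) over all 14486 genes, with Benjamini-Hochberg adjustment and a threshold of 0.05. Standard errors came from the F statistic, and intervals are 95%. The biological coefficient of variation was 15.3%. The fitting code was tested on simulated data.

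Members, lists and comparisons were chosen with earlier results of these data known. Values in every library are given for members that passed, for the 3 with the smallest p in each of the 7 comparisons, and for Pygm, Pfkm, Aldoa, Gapdh, Ldha, Ldhb, Gys1, Fbp2 and Pkm. Alternatives were DESeq2 1.42.0, limma-voom (limma 3.58.1), other scalings and filters, only the compared groups, a replicate block, and leaving libraries out; summing similar rows and the pooling by role were added after seeing the data. Counts of replicates differed beyond sampling noise in every group. Figures used matplotlib 3.10.9 in Python 3.11.15.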

Additional observations from a re-analysis of the deposited data

How the results depend on the processing

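Members passing in exercised against sedentary WT (0) stayed at 0 in all alternatives but 1: without sedentary MKO replicate 3 the count was 1 (Pfkfb4), so leaving out libraries gave 0 to 1. Over both genotypes (2 members) leaving out 1 library gave 0 to 3, no filter gave 0, limma-voom 1, and the replicate block 0. Total counts alone gave 3, all lower, DESeq2 3, and the 3 libraries left out together gave 2, both higher (Eno3 and Ldha). Fbp2 passed in 8 and Ppp1r3c in 10 of 22 alternatives, Pfkfb3 in 6. In the other 5 comparisons the count stayed at 0 in every alternative run. Same-numbered libraries did not deviate together (correlations of deviations -0.153 to 0.0759), so the replicate numbers gave no sign of pairing. With 3 libraries per group this is a weak check, and a shared litter or batch was not tested. The replicate block gave 0 members over both genotypes and 602 genes in WT.

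Across 140 values of named members, 3159 alternative values included 2920 on the same side, 26 that lost and 11 that gained a call, 202 uncalled values that changed sign, and 0 called values that changed sign. Over all genes, calls ranged from 316 to 855 in MKO (586), 602 to 1332 in WT (1193), 1371 to 2713 over both (1965), 2 to 108 for MKO against WT exercised (5; DESeq2 84), 0 to 3 sedentary (1), 2 to 163 averaged (2; DESeq2 132) and 0 to 4 for the difference (0). Scaling by total counts alone gave 259 higher and 596 lower in MKO (332 and 254), 469 and 863 in WT (599 and 594), and 623 and 2090 over both (893 and 1072); it moved the median of all genes by -0.15, -0.10 and -0.12. Levels of Pygl and Ppp1r3b, with at most 13 counts in a library, are limited by depth.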
